A study of Homo sapiens with 4 samples.

Results

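Chromosome 13 before its distal end was described in 2 established human prostate cancer cell lines by lamin B1 chromatin immunoprecipitation and sequencing (ChIP-seq). Its members are the 40 kb bins of the long arm, up to the bin that starts at 108960001 in the hg19 build, that hold a value in both lines. They number 2246 of the 71436 such bins of the genome. Inside them lies a stretch labelled as a long gene desert, from 53000001 to 72000000, with 473 bins, and the other 1773 bins are called the rest. LNCaP is a line of prostate adenocarcinoma and VCaP is a line of bone metastatic prostate cancer. Both were grown in culture without any treatment other than formaldehyde fixation, and each gave 1 lamin B1 library and 1 input library that saw no antibody.

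The nuclear lamina is a meshwork under the inner nuclear membrane, and lamin B1 is one of its filament proteins. Chromatin that touches it forms long lamina-associated domains, which in most cell types are poor in genes, late in replication and little transcribed. Chromosome 13 is an acrocentric chromosome with few genes for its length, so most of its measured sequence is in 1 long arm. The band 13q21, in which most of the desert lies, is known for protocadherin genes, whose products are calcium-dependent adhesion proteins of neurons. In the gene order of the RefSeq table (GRCh38), 17 of the 338 protein-coding genes of the chromosome are listed from PCDH8 to DACH1. They include PCDH8, PCDH17, PCDH20 and PCDH9, 5 nearly identical copies of PRR20, and 3 genes without an established name. Among the others are OLFM4, which encodes a secreted glycoprotein of intestinal crypt cells, DIAPH3, a formin that nucleates actin filaments, and TDRD3, a Tudor domain protein that binds methylated arginine. KLHL1, a kelch-like protein of neurons, and DACH1, a transcriptional cofactor, close the list. Gene positions in hg19 were not analysed here, so no gene is tied to a bin and the low gene content of the desert rests on its label and on this order.

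The value of a bin is the log2 ratio of the ChIP library to its own input, called enrichment or level here, and the deposited hidden Markov model gives each bin an associated or a not associated state. No comparison has a replicate check, since each group has 1 library, and no p-value is given. Read depth is unknown. In its place, the noise of 1 bin was estimated from bins 3 apart, as an SD of 0.15 in LNCaP, 0.22 in VCaP and 0.19 for the difference between the lines. This estimate also contains true changes over that distance. The members were chosen by position, with a limit selected on the measured log2 enrichment, whose median in LNCaP is lower beyond it, so the levels around it are only described. The 5 bins just inside the limit lay between -0.66 and -0.47 in LNCaP and between -0.13 and 0.48 in VCaP. The 5 bins just outside lay between -0.49 and -0.24 in LNCaP and between 0.14 and 0.57 in VCaP. The 148 bins beyond the limit had a median level of -0.96 in LNCaP and 0.49 in VCaP.

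Pooled over all members, the median level was below that of the genome in both lines. The median log2 enrichment of the members was -0.11 in LNCaP (interquartile range -0.30 to 0.17) and 0.01 in VCaP (-0.26 to 0.23). Over all bins of the genome the medians were 0.06 in LNCaP and 0.19 in VCaP. In LNCaP 576 members, or 25.6%, were in the associated state, against 37.9% of all bins. In VCaP 428 members, or 19.1%, were associated, against 44.4% of all bins. Enrichment was over 0 in 37.3% of members in LNCaP (genome 56.9%) and in 50.5% in VCaP (genome 66.9%). All 23 other chromosomes had a higher associated share in VCaP. In LNCaP 16 of the 23 had a higher share and 7 a lower one. Most members, 1352 or 60.2%, were associated in neither line, against 38.4% of all bins.

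Those members that were associated were mostly so in 1 line only, which also held for the associated bins of the genome. Both lines were associated in 110 members (4.90%), where the genome had 20.6%. The lower share of the members in each line by itself lowers this overlap. LNCaP alone was associated in 466 (20.7%, genome 17.2%) and VCaP alone in 318 (14.2%, genome 23.8%). Chromosomes 4, 5 and 18, which are also poor in genes, had larger shares in both lines, with 17.0%, 19.5% and 28.0% of their bins associated in both. In VCaP the associated share was 25.4% on chromosome 4, 33.6% on chromosome 5 and 42.8% on chromosome 18. In LNCaP it was 41.4%, 46.5% and 46.2%, so the members of chromosome 13 lay below all 3 in each line.

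**Figure D1:**
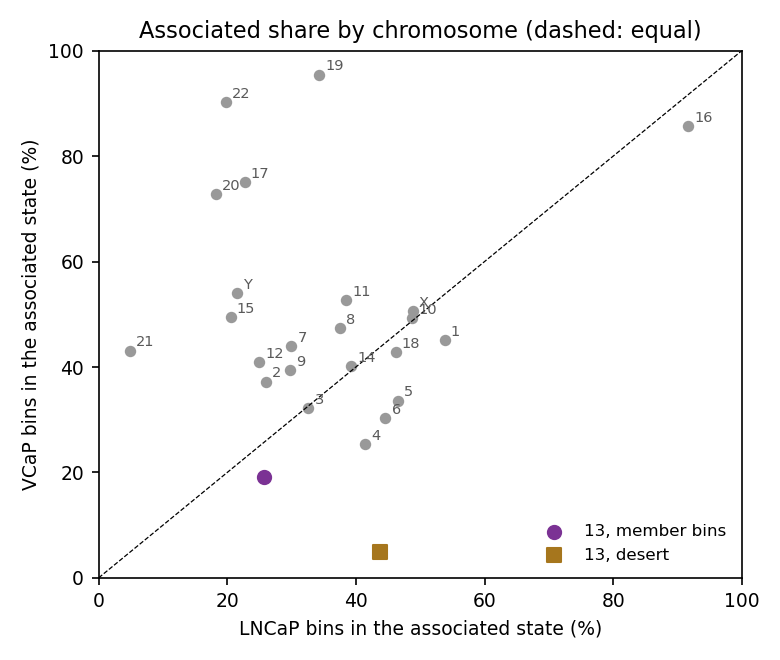
Share of 40 kb bins in the associated state, LNCaP on the x axis and VCaP on the y axis, both in percent. Grey points are the other 23 chromosomes, the circle is the 2246 members of chromosome 13 (25.6% and 19.1%) and the square is its desert (43.8% and 4.86%), which lies far below the dashed line of equal shares.

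In the gene desert the lines went opposite ways against the rest. In LNCaP 207 of its 473 bins (43.8%) were associated, against 20.8% of the rest and 37.9% of all bins of the genome. In VCaP only 23 (4.86%) were, against 22.8% of the rest and 44.4% of all bins. The difference in share, desert minus rest, was 23.0 percentage points in LNCaP and -18.0 points in VCaP. Of its 23 VCaP bins, 16 were also associated in LNCaP, while 191 bins (40.4%, genome 17.2%) were associated in LNCaP alone and 7 (1.48%, genome 23.8%) in VCaP alone.

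The levels moved the same way as the states. For comparison, the genome medians were 0.06 in LNCaP, close to that of the desert, and 0.19 in VCaP. The median log2 enrichment of the desert was 0.08 in LNCaP (interquartile range -0.25 to 0.37) and -0.14 in the rest (-0.31 to 0.09), a difference of 0.21. VCaP had a median of -0.09 in the desert (-0.35 to 0.11) and 0.02 in the rest (-0.23 to 0.26), a difference of -0.12. Both differences were smaller than the SD between the 1 Mb windows of the desert, at 0.30 for LNCaP and 0.23 for VCaP, and the ranges overlap widely. The VCaP difference depended on which part of the rest was taken. It was -0.20 against the centromeric side of the desert, -0.06 against the telomeric side and -0.03 against the 19 Mb on either side.

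Set directly against each other, the lines differed in sign between the desert and the rest. The median difference in level, VCaP minus LNCaP, was -0.18 in the desert (interquartile range -0.41 to 0.07) and 0.13 in the rest (-0.17 to 0.41). The VCaP tables sit higher over the whole genome, where the same median was 0.10. Relative to it, the desert was at -0.28 and the rest at 0.03. With each line centred on its own genome median the difference was -0.32 in the desert and -0.0019 in the rest. Quantile normalization of the lines gave -0.26 and 0.067. The higher VCaP value of the rest thus depended on the scale, and centring removed it. LNCaP was higher in 68.5% of desert bins, in 38.2% of the rest and in 41.9% of all bins. A difference of more than 0.5 in favour of LNCaP was found in 84 desert bins (17.8%, genome 9.33%), and in favour of VCaP in 10 (2.11%, genome 21.3%). On chromosomes 4, 5 and 18, LNCaP was higher in 58.7%, 53.5% and 49.3% of bins. There the difference exceeded 0.5 in favour of LNCaP in 15.3%, 15.8% and 11.6%, and in favour of VCaP in 7.46%, 11.9% and 7.33%.

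**Figure D2:**
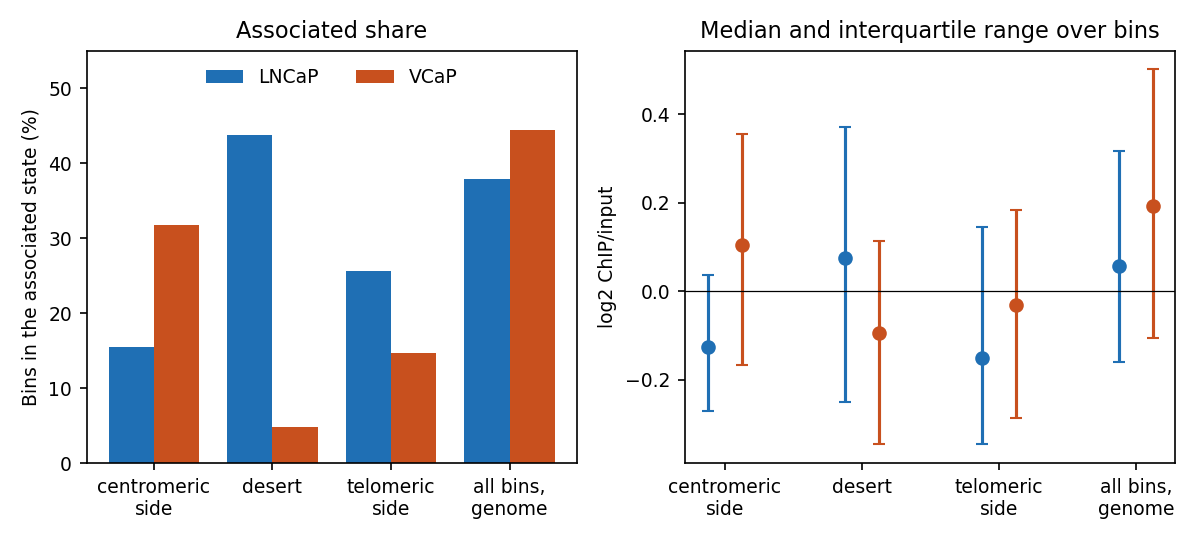
Left, percent of bins in the associated state on the centromeric side of the desert (850 bins), in the desert (473), on its telomeric side (923) and over all 71436 bins. Right, median log2 ChIP over input with bars for the interquartile range over bins of 1 library pair per line, not over replicates. In the desert LNCaP stands above VCaP, and on the centromeric side the order is the reverse.

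Along the chromosome the 2 sides of the desert were unlike each other. On the centromeric side, 270 of 850 bins (31.8%) were associated in VCaP and 132 (15.5%) in LNCaP. The median difference there, VCaP minus LNCaP, was 0.23, and VCaP was higher in 28 of 34 windows of 1 Mb. On the telomeric side the shares were 14.6% in VCaP and 25.7% in LNCaP, the median difference was 0.01, and VCaP was higher in 18 of 37 windows. Over all bins of the genome the shares were 44.4% in VCaP and 37.9% in LNCaP, and the median difference was 0.10. Relative to that difference, the centromeric side was at 0.13 and the telomeric side at -0.09. The desert had 19 windows, with LNCaP higher in 14. In 17 of the 19, VCaP had no associated bin at all, and in 7 LNCaP had none. Such windows were also common in the rest, at 39 of 71 in VCaP and 45 of 71 in LNCaP. On the telomeric side they were 26 of 37 in VCaP and 21 of 37 in LNCaP, and on the centromeric side 13 of 34 and 24 of 34.

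In windows of 5 Mb the centromeric side began with VCaP above LNCaP. The VCaP mean level was 0.25 from 20000001 to 25000000 (SD over bins 0.36, n = 125), where 48.0% of bins were associated (genome 44.4%). LNCaP stood at -0.15 (SD 0.18) there, with 0.80% associated (genome 37.9%). The order turned once before the desert, from 35000001 to 40000000. There LNCaP had a mean of 0.13 (SD 0.27) with 45.6% of bins associated, and VCaP had -0.17 (SD 0.29) with none of its 125 bins associated. From 90000001 to 95000000 both lines were low, at -0.20 (SD 0.17) in LNCaP and -0.41 (SD 0.20) in VCaP, and neither had an associated bin. VCaP rose again near the end of the members, with 41.6% of bins associated from 95000001 to 100000000 and the same share from 100000001 to 105000000. This was near its genome share of 44.4%, so VCaP was high there only against other stretches of the members.

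**Figure D3:**
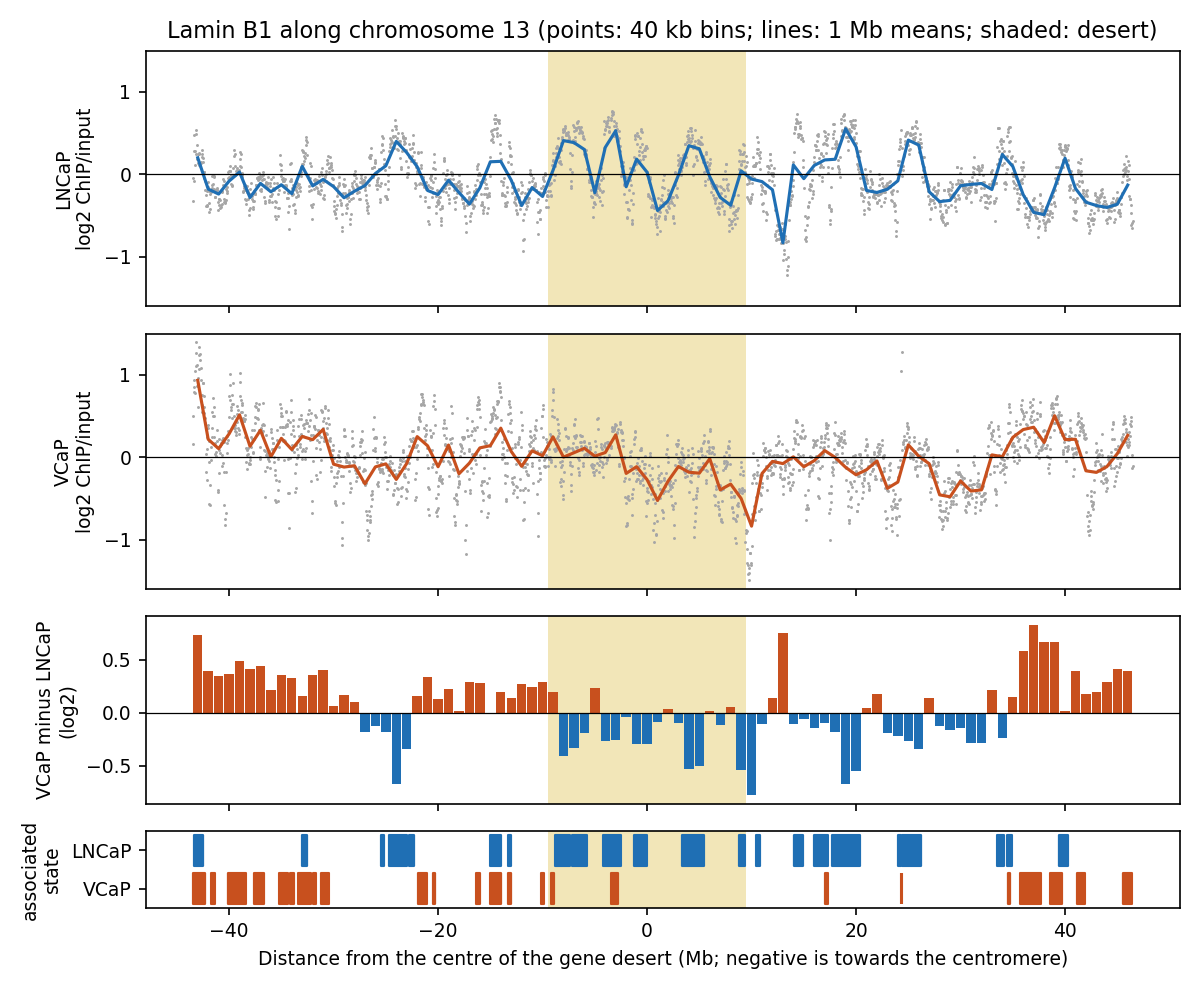
Lamin B1 along the members, by distance in Mb from the centre of the desert. Grey points are 40 kb bins and lines are means of 1 Mb windows of log2 ChIP over input; bars give the window difference VCaP minus LNCaP (log2), the lowest panel shows bins in the associated state, and the desert is shaded. The desert holds 7 LNCaP runs of associated bins and 2 VCaP runs, of 280 and 640 kb.

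Inside the desert, LNCaP alternated between high and low stretches. Runs of associated bins were joined across gaps of up to 2 bins, since a wider table entry from 58920001 to 59000000 split 1 run. This gave 6 LNCaP domains with 8360 kb in total and 7 stretches between them with 10640 kb. The domains had median LNCaP levels of 0.25 to 0.58, and the stretches between them -0.30 to 0.10. The 2 ranges did not overlap, which the state itself fixes.

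In the 6 LNCaP domains VCaP had the lower median in each, an order that choosing them by the LNCaP state favours. Going from the centromeric to the telomeric end, the domain from 53720001 to 55120000 had a median level of 0.43 in LNCaP (SD over bins 0.14) and 0.10 in VCaP (SD 0.25). The domain from 55320001 to 56720000 had 0.51 (SD 0.13) and 0.13 (SD 0.16). The highest was that from 58320001 to 59960000, with 0.58 (SD 0.13) in LNCaP and 0.18 (SD 0.15) in VCaP. It was also the only 1 of the 6 with VCaP bins in the associated state, 16 of 39.

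The 3 domains nearer the telomere were below 0 in VCaP. From 61240001 to 62480000 the median level was 0.33 in LNCaP (SD 0.12) and -0.14 in VCaP (SD 0.24). The domain from 65840001 to 67960000, at 2120 kb the longest of the desert, had 0.36 (SD 0.13) and -0.14 (SD 0.26). The short domain from 71280001 to 71840000 had 0.25 (SD 0.10) and -0.39 (SD 0.16). The gap between the lines, LNCaP minus VCaP, widened in this order, from 0.33 in the first domain through 0.38, 0.40, 0.46 and 0.51 to 0.64 in the last.

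The 7 stretches between the domains had no common order of the lines. VCaP had the higher median from 53000001 to 53720000, at 0.10 (SD 0.32) with 7 of 18 bins associated, where LNCaP had -0.07 (SD 0.18). It was also higher from 56720001 to 58320000, at 0.01 (SD 0.17) against -0.18 (SD 0.15). LNCaP had the higher median in the 4 bins from 71840001 to 72000000, at 0.10 (SD 0.08) against -0.91 (SD 0.16). It was also higher from 55120001 to 55320000, at -0.09 against -0.21, and from 59960001 to 61240000, at -0.12 against -0.22. In the 2 longest stretches the medians nearly coincided. The one from 62480001 to 65840000 had a median level of -0.30 in LNCaP (SD 0.22) and -0.32 in VCaP (SD 0.30). From 67960001 to 71280000 the levels were -0.25 (SD 0.23) and -0.27 (SD 0.33). Over the whole desert the VCaP median was 0.02 in bins associated in LNCaP (interquartile range -0.19 to 0.18, n = 207) and -0.16 in the other bins (-0.45 to 0.04, n = 266). These ranges overlap, and 16 of the 207 bins were associated in VCaP too. The order did not hold domain by domain: VCaP had -0.39 in the last domain and -0.27 in the stretch before it.

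**Figure D4:**
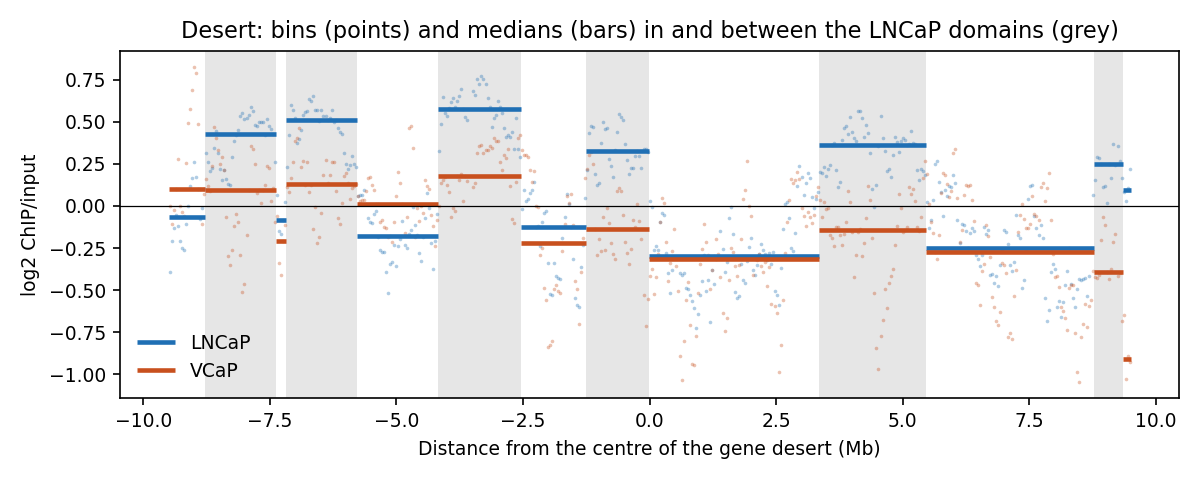
Log2 ChIP over input in the desert, by distance in Mb from its centre. Points are 40 kb bins, bars are medians of each stretch, and grey marks the 6 LNCaP domains; the LNCaP bar lies above the VCaP bar in all 6, and the 2 bars nearly coincide in the long stretches from 62480001 to 65840000 and from 67960001 to 71280000.

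The correlation of the 2 profiles is given as a description of these libraries. Across the 473 desert bins Pearson r was 0.513 and Spearman rho 0.514, and across the 1773 other bins they were 0.323 and 0.345. The sides of the desert differed, with an r of 0.459 on the centromeric side, close to that of the desert, and 0.243 on the telomeric side. With the averaging undone the desert had an r of 0.458 and the rest 0.354. All members together gave an r of 0.322, and all bins of the genome 0.281. With the 148 bins beyond the limit added, chromosome 13 had an r of 0.149. The position of the members against the genome thus depended on a limit that was selected on the measured values. Neighbouring bins share averaged entries, and both lines share the sequence of each bin, so these bins are not independent. In means of 1 Mb windows r was 0.639 over the 19 windows of the desert and 0.127 over the 71 windows of the rest. After subtracting each window's mean the order turned, with an r of 0.383 in the desert and 0.529 in the rest. So r was higher in the desert for window means and lower there within windows.

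**Figure D5:**
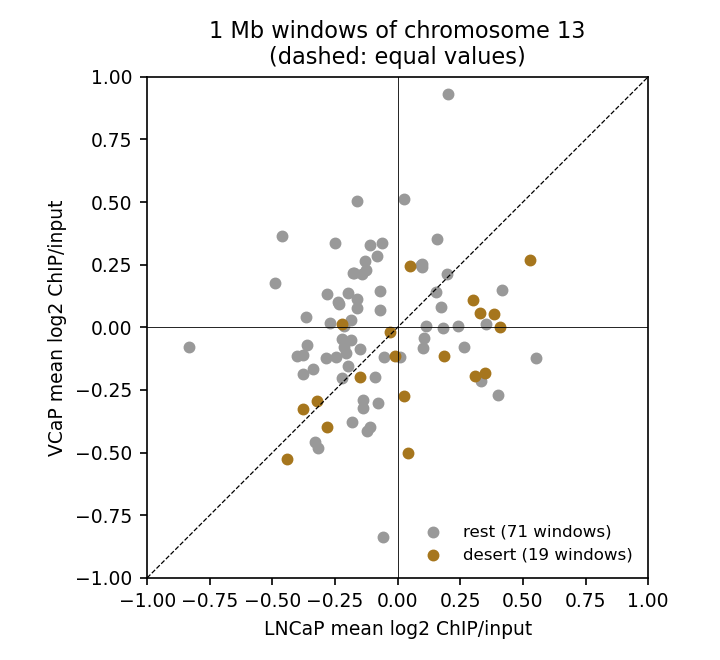
Means of 1 Mb windows of log2 ChIP over input, LNCaP on the x axis and VCaP on the y axis, with 19 windows in the desert and 71 in the rest. The dashed line marks equal values; 14 of the 19 desert windows lie below it, and 46 of the 71 others lie above it.

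In both lines the mean level was higher in the 1 Mb inside each edge of the desert than in the 1 Mb outside it. At the centromeric edge the LNCaP mean was -0.27 (SD over bins 0.18, n = 25) in the 1 Mb outside and 0.05 (SD 0.22, n = 25) inside. In VCaP it was 0.02 (SD 0.36) outside and 0.25 (SD 0.28) inside. The telomeric edge had means of 0.04 (SD 0.28) inside and -0.06 (SD 0.20) outside in LNCaP. VCaP had -0.50 (SD 0.25) inside and -0.84 (SD 0.48) outside, its lowest window of all members. At this edge the LNCaP step was smaller than either SD over bins. A VCaP stretch below -0.5, from 71800001 to 72560000, crossed the same edge.

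The runs of associated bins were counted over all members without joining. There were 23 in LNCaP, their lengths centred on a median of 920 kb (quartiles 540 and 1360 kb), and 25 in VCaP, with a median of 640 kb (quartiles 280 and 960 kb). The desert held 7 of the LNCaP domains, with a median of 1240 kb, of which 6 had no VCaP bin in the associated state. It held 2 of the VCaP domains, the longer of 640 kb. The 3 longest LNCaP domains ran from 80200001 to 82880000 (2680 kb), from 65840001 to 67960000 (2120 kb) and from 86880001 to 88760000 (1880 kb). A wide table entry bounds the last of these. Joined across gaps of up to 2 bins, it ran from 86520001 to 88760000 (2240 kb) and was longer than the one in the desert. The 3 longest VCaP domains ran from 98200001 to 100160000 (1960 kb), from 22360001 to 24080000 (1720 kb) and from 29120001 to 30360000 (1240 kb). None of these 3 was in the desert, and LNCaP had no associated bin in the first of them or in the second.

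Regions specific to a line were defined as runs of at least 5 such bins without a bin of the other line. LNCaP alone had 18, with 18.36 Mb, of which 7 were in the desert, 3 on the centromeric and 8 on the telomeric side. VCaP alone had 19, with 12.52 Mb, of which 1 was in the desert, 14 on the centromeric and 4 on the telomeric side. Choosing regions by the state largely fixes the direction of their difference, so the differences are given as a description, with the noise SD of the mean. LNCaP regions with the largest differences, VCaP minus LNCaP, ran from 86520001 to 86760000 (-0.65, noise SD 0.14), from 37800001 to 39480000 (-0.61, 0.05), from 72960001 to 73320000 (-0.58, 0.11), from 71280001 to 71840000 (-0.56, 0.09) and from 80200001 to 82880000 (-0.52, 0.04). Only the fourth of these is in the desert, and 4 of the 6 bins of the first lie beside a gap of the table. VCaP regions with the largest differences ran from 101080001 to 101880000 (0.76, noise SD 0.08), from 98200001 to 100160000 (0.75, 0.05), from 52360001 to 52600000 (0.62, 0.14), from 20040001 to 20240000 (0.60, 0.15) and from 46160001 to 46520000 (0.57, 0.11).

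A stretch on the telomeric side, from 76 to 89 Mb, had a pattern like that of the desert. It was picked with its values in view. Of its 323 bins, 54.8% were associated in LNCaP (genome 37.9%) and 2.79% in VCaP (genome 44.4%), and no bin was associated in VCaP alone. The median level was 0.14 in LNCaP (interquartile range -0.19 to 0.45) and -0.04 in VCaP (-0.27 to 0.14), and Pearson r between the lines was 0.498. The median difference, VCaP minus LNCaP, was -0.17, next to -0.18 in the desert. It also held the highest LNCaP window of the members, from 81000001 to 82000000, with a mean of 0.55 (SD 0.10, n = 25) against -0.12 (SD 0.35) in VCaP. High LNCaP and low VCaP shares were thus also found outside the bounds of the desert.

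The other highest LNCaP windows were that from 59000001 to 60000000 in the desert, with a mean of 0.53 (SD 0.18), and that from 87000001 to 88000000, with 0.42 (SD 0.13). VCaP had its highest windows outside the desert. They began at 19000001, beside the centromeric gap, with a mean of 0.93 (SD 0.29), at 23000001 with 0.51 (SD 0.19) and at 101000001 with 0.50 (SD 0.18). The lowest LNCaP windows began at 75000001 with -0.83 (SD 0.18), at 100000001 with -0.49 (SD 0.11) and at 99000001 with -0.46 (SD 0.11). VCaP stood at -0.08, 0.18 and 0.36 in these 3. Its own lowest windows began at 72000001 with -0.84 (SD 0.48), at 63000001 with -0.53 (SD 0.26) and at 71000001 with -0.50 (SD 0.25), so 2 of the 3 were in the desert.

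Of the 2246 members, 473 of them in the desert, 175 were below -0.5 in LNCaP and 244 in VCaP. The genome share of such bins is not given here. Stretches of at least 5 adjacent bins below -0.5 numbered 8 in LNCaP, 1 of them wholly in the desert, and 16 in VCaP, 6 of them wholly in the desert. The VCaP stretch from 71800001 to 72560000, with 5 of its 19 bins in the desert, is not among these 6. The stretch around the lowest 1 Mb window of each line is described here, and was chosen for its low values in that line. In LNCaP 34 adjacent bins from 74720001 to 76080000 were below -0.5, with a mean level of -0.80 (SD 0.17) and a lowest bin of -1.23. VCaP had a mean of -0.07 (SD 0.18) there. The 8 bins on either side had LNCaP means of -0.07 and -0.30. In VCaP 19 adjacent bins from 71800001 to 72560000 were below -0.5, with a mean of -1.11 (SD 0.26) and a lowest bin of -1.49, where LNCaP had a mean of -0.11 (SD 0.19). The 8 bins on either side had VCaP means of -0.31 and -0.37.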

How the data were processed

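Lamin B1 ChIP and input DNA of LNCaP and VCaP were sequenced, 1 library each, grouped by their titles. The deposited values are log2 ChIP over input per bin. The build hg19 and the tool STAR are listed, without a role, per the submitters' processing notes. Scaling and filters are not given in the sources used here. The deposited state labels, AD and iAD, come from a hidden Markov model, per the name of the table, and AD was taken as associated.

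The deposited log2 values were found to be trailing means over 3 entries. Undoing this mean on chromosome 13 brought 4 of 5 wide entries in LNCaP and 4 of 4 in VCaP to 0. Signal is thus placed about 1 bin downstream. Members are entries 40 kb wide. 2 wider entries were left out in LNCaP and 1 in VCaP. Noise is 1.4826 times the median absolute difference of bins 3 apart, divided by the square root of 2, and the noise of a region counts 1 value per 3 bins. Windows of 1 Mb had at least 20 bins.

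Regions named are the 3 longest domains, the 5 line-only regions with the largest differences and the 3 highest and lowest windows per line. Members and rules were chosen with earlier results of these data known. The calculations were run on simulated independent bins with planted values. This checked the code only, not its behaviour where neighbouring bins resemble each other as in these data. Genes were not placed, as the gene table is of GRCh38, and for the same reason no sequence is shown. Python 3.11.15, numpy 2.4.6, pandas 2.3.3 and matplotlib 3.10.9 were used.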

Additional observations from a re-analysis of the deposited data

Results flagged for a closer look

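The desert was above the rest in LNCaP, with a difference in median log2 enrichment of 0.21, and below it in VCaP, with a difference of -0.12. These opposite directions were not tested against each other, as every group holds 1 library. The VCaP difference was -0.20 against the centromeric side, -0.06 against the telomeric side and -0.03 against the 19 Mb on either side.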

How the results depend on the processing

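For 19 results 100 alternative values were computed, of which 64 stayed within the noise of the value, within 0.1 for r or within 1.5 times for counts and shares, 33 moved and 3 changed sign. Alternatives chosen after seeing the data are the undone mean, the 2 sides as the rest, the lowest stretches left out, and shares with moved bounds. The median level of the members near 0 in VCaP changed sign with the mean (-0.018) and with centring on the genome median (-0.19). In LNCaP it was -0.064 with the mean, -0.17 centred and -0.088 with the 3-entry mean undone. The desert minus rest difference kept its sign under all 11 alternatives in each line. In LNCaP it moved to 0.15 (means), 0.17 (bounds 1 Mb further out) and 0.18 (rest within 19 Mb). In VCaP it moved to -0.034 (rest within 19 Mb), -0.20 (centromeric side) and -0.062 (telomeric side). Centring took VCaP minus LNCaP to -0.32 in the desert and -0.0019 in the rest, and quantile normalization to -0.26 and 0.067. Calling bins over 0 associated gave 32.4% in the rest in LNCaP, and 39.3% in the desert and 53.5% in the rest in VCaP. A threshold of 0.5 gave 13.7% (desert) and 4.85% (rest) in LNCaP and 0.846% and 9.48% in VCaP, and the genome median gave 14.8% in the desert in VCaP. The desert had the higher share in LNCaP and the lower in VCaP under every one of these. With 1 Mb means r was 0.170 over all members, 0.639 in the desert and 0.127 in the rest, and within windows 0.501, 0.383 and 0.529. Bins over 0 formed 89 LNCaP and 162 VCaP domains, each with a median of 160 kb. A mean difference over 0.5 left 6 LNCaP and 9 VCaP regions, and a minimum of 10 bins left 10 in VCaP, by construction. Other causes were not tested. No paired analysis was possible because no group has a second library, and read depth was not at hand.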

Other observations

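Bins beside gaps of the table carried some of the extreme values. The VCaP bin from 86760001 to 86800000 had a level of 1.04, and the bin from 86880001 to 86920000 had 1.28, while LNCaP had 0.53 and 0.32. They flank a wide entry and were the only VCaP bins there in the associated state. With the 3-entry mean undone the first was at 3.39 and the second at 0.45, so the level of the second came from its neighbours.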
